A study of Mus musculus with 18 samples.

Results

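The miR-7 and miR-129 families were followed as 8 mature miRNAs of the mouse: the 5p arms mmu-miR-7a-5p, mmu-miR-7b-5p and mmu-miR-129-5p, and the 3p arms mmu-miR-7a-1-3p, mmu-miR-7a-2-3p, mmu-miR-7b-3p, mmu-miR-129-1-3p and mmu-miR-129-2-3p. They were chosen by name, as the listed members of the families among 1431 counted miRNAs. Small RNA was counted in left and right eyes, left and right lungs and left and right testicles of C57BL/6 males aged 8 to 12 weeks, described as normal, with 3 libraries in each of the 6 groups. The labels name no treatment or altered allele, and they do not say whether libraries came from separate animals or whether both sides came from the same mice. All p-values below therefore measure the spread between these libraries, and if sides share an animal, n = 6 per organ, the SEs and the p-values overstate the replication.

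A miRNA hairpin yields a 5p and a 3p arm. One of them, the guide, is usually loaded into an Argonaute protein and pairs with messenger RNAs through its seed, while the other arm is mostly degraded. In both families the 5p arm is the usual guide. miR-7 is known from neurons, endocrine cells and pancreatic islets, where it restrains hormone secretion and binds the circular RNA Cdr1as. miR-129 is known from neurons, where it represses ion channel and synaptic transcripts. miR-7a-5p is made from Mir7-1 and Mir7-2, and miR-129-5p from Mir129-1 and Mir129-2, so these guides alone do not name their locus. miR-7b-5p comes from Mir7b alone, and the 3p arms differ between loci.

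The mature sequences below show what can and cannot be told apart, and come from the RefSeq miRNA table for build GRCm38.p6, which held 7 of the 8 members. Capitals mark the seed, bases 2 to 8 from the 5′ end.
miR-7a-5p: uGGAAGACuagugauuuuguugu
miR-7b-5p: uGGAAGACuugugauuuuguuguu
miR-7a-1-3p: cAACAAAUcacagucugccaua
miR-7a-2-3p: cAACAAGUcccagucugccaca
miR-7b-3p: cAACAAGUcacagccagccuca
miR-129-5p: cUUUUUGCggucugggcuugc
miR-129-2-3p: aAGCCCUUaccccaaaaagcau
The miR-7 guides share their seed with each other and with no other of 1679 mature sequences in the table. Counted from the 5′ end, miR-7b-5p differs from miR-7a-5p by the substitution A10U, outside the seed, and is 24 bases long against 23. How reads with a mismatch at that base were assigned is not given in the sources used here, and whether low miR-7b-5p counts include reads of miR-7a-5p was not tested. The 3p arms are easier to separate: miR-7a-2-3p differs from miR-7a-1-3p at 3 positions (A7G, A10C and U21C), the first of them within the seed. miR-7b-3p shares the seed of miR-7a-2-3p and differs from it at 4 positions (C10A, U14C, U16A and A20U). miR-129-5p shares its seed with none of the other mature sequences. The Mir129-1 hairpin printed next holds a stretch of 22 bases that differs from miR-129-2-3p by 1 substitution, C20U, so the counts of the miR-129 3p arms carry the same uncertainty as those of the miR-7 guides.

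The hairpins show how 1 guide is made at separate loci. Both arms stand in capitals where the table gives them.
Mir7-1: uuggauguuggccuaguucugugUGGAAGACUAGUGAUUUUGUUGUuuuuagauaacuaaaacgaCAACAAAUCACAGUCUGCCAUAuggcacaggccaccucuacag
Mir7-2: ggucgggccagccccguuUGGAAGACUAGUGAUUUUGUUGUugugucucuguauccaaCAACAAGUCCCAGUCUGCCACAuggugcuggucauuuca
Mir7b: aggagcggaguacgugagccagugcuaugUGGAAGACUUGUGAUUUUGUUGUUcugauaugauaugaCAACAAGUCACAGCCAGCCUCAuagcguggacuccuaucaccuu
Mir129-1: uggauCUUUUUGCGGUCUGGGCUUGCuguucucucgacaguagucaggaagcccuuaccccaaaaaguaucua
Mir129-2: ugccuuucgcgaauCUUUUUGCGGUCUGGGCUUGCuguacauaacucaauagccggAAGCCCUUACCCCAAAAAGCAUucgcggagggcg
Mir7-1 lies at chr13:58392779-58392886 on the minus strand, inside an intron of Hnrnpk, which encodes a broadly expressed RNA-binding protein (build GRCm38.p6, with gene positions from GENCODE M21). Mir7-2, at chr7:78888277-78888373 on the plus strand, is intergenic, 7481 bases from Aen, the nearest protein-coding gene. Mir7b, at chr17:56242988-56243098 on the plus strand, is also intergenic, 13712 bases from Fem1a. Mir129-1 lies at chr6:29022619-29022691 on the plus strand, within an exon of Gm3294, a long non-coding RNA. Mir129-2 lies at chr2:94241364-94241453 on the minus strand, within an intron of Mir670hg, also a long non-coding RNA. Mir129b overlaps 65 bases of Mir129-2 on the opposite strand, at chr2:94241378-94241442, and without a stated strand setting reads from the pair cannot be told apart with certainty.

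The libraries held 2451484 to 2680204 miRNA counts for eyes, 2538402 to 2790471 for lungs and 952608 to 1893132 for testicles. Where a count was 0, up to 3 counts remain possible, counting error only, which is 1.12 to 1.22 counts per 1000000 (CPM) for an eye, 1.08 to 1.18 CPM for a lung and 1.58 to 3.15 CPM for a testicle. The tissue labels were checked against 7 marker miRNAs for each organ. Summed eye markers, among them miR-124-3p, miR-184-3p and miR-204-5p, stood at 273366 to 307692 CPM in eyes, 2753 to 6578 CPM in lungs and 17763 to 28274 CPM in testicles, and none of the 7 was at 0 in any library. In lungs most of this sum came from markers other than miR-124-3p, with 20 to 457 counts, and miR-184-3p, with 19 to 411 counts. Summed testicle markers stood at 3.73 to 32.6 CPM in eyes, 15.4 to 165 CPM in lungs and 53635 to 73878 CPM in testicles, with up to 5 of the 7 at 0 in an eye library, up to 3 in a lung library and 1 in right testicle 2. Summed lung markers stood at 28398 to 35285 CPM in eyes, 111205 to 123414 CPM in lungs and 22720 to 29884 CPM in testicles.

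As a share of all counts, the 5 miR-7 members took 0.686% ± 0.0884 of an eye library, 0.0725% ± 0.00889 of a lung library and 0.149% ± 0.0261 of a testicle library (SD, n = 6 each). The 3 miR-129 members took 0.211% ± 0.0228 of an eye library, 4.3e-04% ± 1.5e-04 of a lung library and 0.0215% ± 0.00432 of a testicle library. Both families were thus most abundant in eyes and least abundant in lungs, with no overlap between organs. In whole organs, fewer cells that make a miRNA and less of it per cell cannot be told apart.

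**Figure D1:**
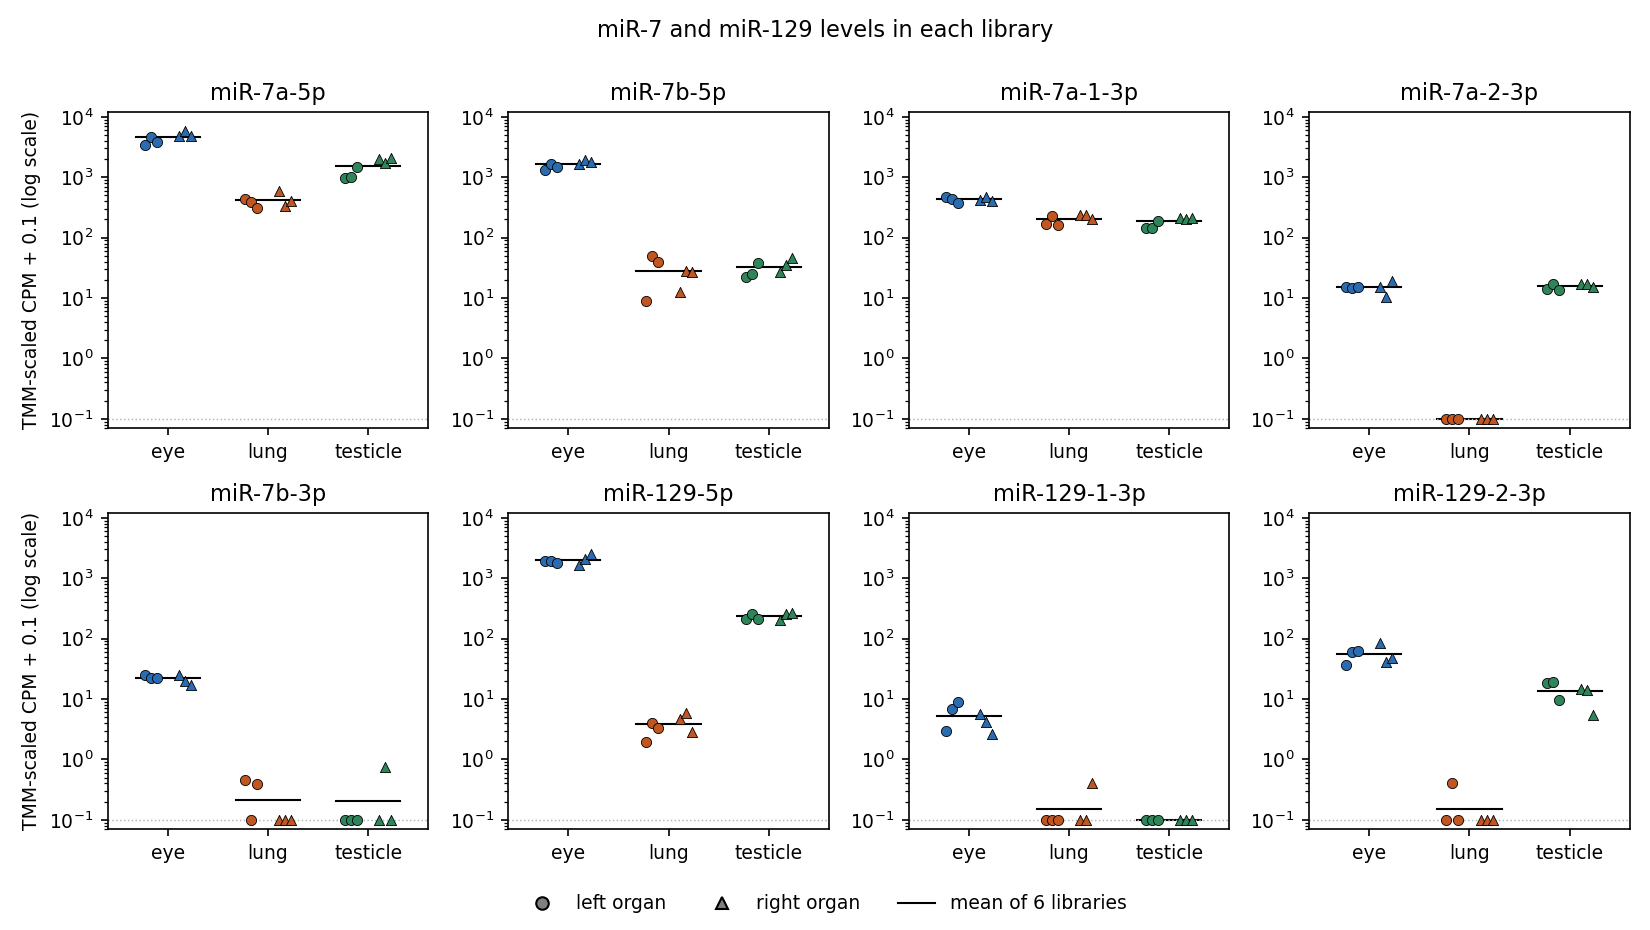
Level of each of the 8 members in every library, as CPM scaled by the trimmed mean of M values (TMM) with 0.1 added, on a log axis. Circles are left organs, triangles right organs, lines the mean of 6 libraries, and the dotted line a count of 0. Eye libraries lie above all others for 7 members, and miR-7a-2-3p, at 0 in every lung, overlaps between eye and testicle.

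Levels from here on are CPM scaled by the trimmed mean of M values (TMM), unless library totals are named. The guide miR-7a-5p was the most abundant member in all 3 organs. Its lowest, median and highest levels were 3486, 4694 and 5822 CPM in eyes, 316, 396 and 602 CPM in lungs, and 980, 1602 and 2053 CPM in testicles. The organs did not overlap, and their order was eye, testicle, lung. The log2 fold change of eye over lung was 3.45 (SE 0.19, edgeR with adjusted p = 1.3e-10), that of eye over testicle 1.59 (SE 0.18, edgeR with adjusted p = 4.2e-07), and that of lung over testicle -1.86 (SE 0.18, edgeR with adjusted p = 8.0e-08).

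miR-7b-5p, the guide of the third miR-7 gene, was far lower outside the eye. It had a lowest, median and highest level of 1315, 1642 and 1955 CPM in eyes, 8.72, 27.4 and 50.4 CPM in lungs, and 22.5, 31.0 and 45.6 CPM in testicles. Every eye library stood far above the rest, while lung and testicle overlapped. The log2 fold change was 5.89 for eye over lung (SE 0.39, edgeR with adjusted p = 9.7e-10) and 5.66 for eye over testicle (SE 0.39, edgeR with adjusted p = 9.3e-10). Lung over testicle gave -0.23 (SE 0.33, edgeR with adjusted p = 0.53), and this difference changed sign with the scaling, between -0.23 and 0.31.

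The lung libraries were uneven in miR-7b-5p. Its counts were 24, 165 and 135 in left lungs 1 to 3 and 33, 78 and 87 in right lungs 1 to 3, so that left lung 1 and right lung 1 were low. miR-7a-5p did not share this pattern, with 1216, 1256 and 1075 counts in left lungs and 1558, 939 and 1331 counts in right lungs. Summed eye markers were lowest in left lung 1 (2753 CPM) and highest in right lung 1 (6578 CPM), mostly from markers other than miR-124-3p and miR-184-3p. The neuronal miR-124-3p had 21, 457 and 128 counts in left lungs and 230, 64 and 20 counts in right lungs. Per 100 counts of miR-124-3p, miR-7b-5p had 3.999 counts in eyes, 56.7 counts in lungs and 2.11 counts in testicles. The part of eye-type RNA in these lung counts was not tested.

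Of the 3 guides, miR-129-5p differed most between eyes and lungs. Its lowest, median and highest levels were 1673, 1921 and 2502 CPM in eyes, 1.82, 3.602 and 5.76 CPM in lungs, and 199.6, 235 and 267 CPM in testicles. The 3 ranges were far apart, in the order eye, testicle, lung, as for miR-7a-5p. The log2 fold change was 9.07 for eye over lung (SE 0.28, edgeR with adjusted p = 1.3e-13), 3.08 for eye over testicle (SE 0.21, edgeR with adjusted p = 9.2e-10) and -5.99 for lung over testicle (SE 0.25, edgeR with adjusted p = 7.7e-12).

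The lung level of miR-129-5p rested on 66 counts over 6 libraries, 5 to 16 in each. Summed eye markers were present in those libraries at the levels given above, mostly from markers other than miR-124-3p and miR-184-3p. Per 100 counts of miR-124-3p, miR-129-5p had 4.87 counts in eyes, 7.17 counts in lungs and 15.5 counts in testicles. The lung library with the most miR-129-5p, right lung 2 with 16 counts, had 64 counts of miR-124-3p, whereas left lung 2, with 457 counts of miR-124-3p, had 13 of miR-129-5p. The part of eye-type RNA in the lung counts was not tested.

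Among the 3p arms, miR-7a-1-3p of the Hnrnpk intron was the only one present at more than 100 CPM in all organs. Its lowest, median and highest levels were 373, 433 and 475 CPM in eyes, 164, 214 and 239 CPM in lungs, and 147, 197 and 212 CPM in testicles. The eye stood above both other organs, which overlapped. The log2 fold change was 1.08 for eye over lung (SE 0.15, edgeR with adjusted p = 7.2e-06), 1.23 for eye over testicle (SE 0.15, edgeR with adjusted p = 1.3e-06) and 0.15 for lung over testicle (SE 0.15, edgeR with adjusted p = 0.36).

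Comparisons of miR-7a-1-3p with the lung depended on the scaling. Without right eye 2, the scaling took left testicle 3 as its reference library in place of right eye 3, and eye over lung became 0.32 (edgeR adjusted p = 0.088). Under the same change lung over testicle became 0.78 (edgeR adjusted p = 2.9e-04). Scaled by library totals alone, miR-7a-1-3p had 176 to 272 CPM in lungs and 144 to 170 CPM in testicles without overlap, a log2 fold change of 0.55 (edgeR adjusted p = 0.0041). With DESeq2 the same comparison gave 0.40 (DESeq2 adjusted p = 0.0080), and it passed in 7 of 26 other settings, always higher in lungs. Besides those named, these were relative log expression scaling, left lung 1 or left testicle 1 as the scaling reference, and leaving out right lung 1 with left lung 2. The other fits with a single library left out took an eye library as the scaling reference, and none of them passed. The fits with no filter and with a replicate block did not pass either. The median log2 value of all tested miRNAs also moved, to -0.54 for eye over lung without right eye 2, against 0.00 with all libraries, and miR-7a-1-3p stood 0.86 to 1.098 above that median for eye over lung and 0.17 to 1.19 above it for lung over testicle, over all settings.

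The guides moved with the scaling by similar amounts but kept their direction and their call in all 26 other settings, apart from miR-7b-5p between lung and testicle. For miR-7a-5p the log2 fold change ran from 2.66 to 3.47 for eye over lung, from 1.38 to 2.07 for eye over testicle and from -1.99 to -1.22 for lung over testicle. For miR-7b-5p it ran from 5.17 to 6.03 for eye over lung and from 5.38 to 6.15 for eye over testicle. For miR-129-5p it ran from 8.37 to 9.13, from 2.80 to 3.59 and from -6.11 to -5.38 in the same 3 comparisons.

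The other miR-7 3p arms were scarce and detected in fewer organs at this depth. miR-7a-2-3p, which marks the Mir7-2 locus, had 43, 39 and 47 counts in left eyes and 38, 26 and 44 counts in right eyes, 0 counts in all 6 lungs, and 13, 27 and 14 counts in left testicles and 19, 27 and 20 counts in right testicles. Against a limit of 3 counts over the 6 lungs it was at least 82.8-fold higher in eyes than in lungs and at least 72.2-fold higher in testicles than in lungs, by library totals. It passed the filter on low counts only through eyes and testicles, so no test against the lung is given. Eye and testicle overlapped, at 15.0 ± 2.66 CPM in eyes and 15.6 ± 1.64 CPM in testicles (SD, n = 6 each), with a log2 fold change of -0.06 (SE 0.19, edgeR with adjusted p = 0.77) that changed sign with the scaling, between -0.21 and 0.45.

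miR-7b-3p, which marks the Mir7b locus, was counted almost only in eyes. It had 69, 58 and 69 counts in left eyes and 63, 50 and 40 counts in right eyes, 2 counts over the 6 lungs and 1 count over the 6 testicles. By library totals its summed level was 183 times higher in eyes than in lungs (95% exact counting interval 50.2 to 1515) and 202 times higher in eyes than in testicles (36.1 to 8018). It passed the filter on low counts through the eye alone, so no test is given. No fold is given between lung and testicle, where both were at or under the limit.

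Most counts of the miR-129 3p arms were assigned to miR-129-2-3p. It had 100, 157 and 195 counts in left eyes and 209, 101 and 112 counts in right eyes, 1 count over the 6 lungs, and 17, 31 and 10 counts in left testicles and 16, 22 and 7 counts in right testicles. Its level was 55.2 ± 17.7 CPM in eyes and 13.5 ± 5.27 CPM in testicles (SD, n = 6 each), without overlap, a log2 fold change of 2.04 (SE 0.32, edgeR with adjusted p = 4.0e-05). By library totals the summed level was 916 times higher in eyes than in lungs (95% exact counting interval 164 to 36203). The testicle stood 186 times above the lung (32.7 to 7418). No library of the lung reached the filter on low counts, so no test against the lung is given.

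miR-129-1-3p, named for Mir129-1, was the scarcest member. It had 8, 18 and 27 counts in left eyes and 14, 10 and 6 counts in right eyes, 1 count in lungs and 0 counts in testicles. The summed level was 86.9 times higher in eyes than in lungs by library totals (95% exact counting interval 15.2 to 3475) and at least 16.05-fold higher in eyes than in testicles. It too passed the filter through the eye alone, and no test is given. Mir129b, opposite Mir129-2, gave few counts: its 3p arm had 6 counts over the eyes, 31 over the lungs and 0 over the testicles, and its 5p arm had 3 over the eyes, 1 over the lungs and 2 over the testicles.

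**Figure D2:**
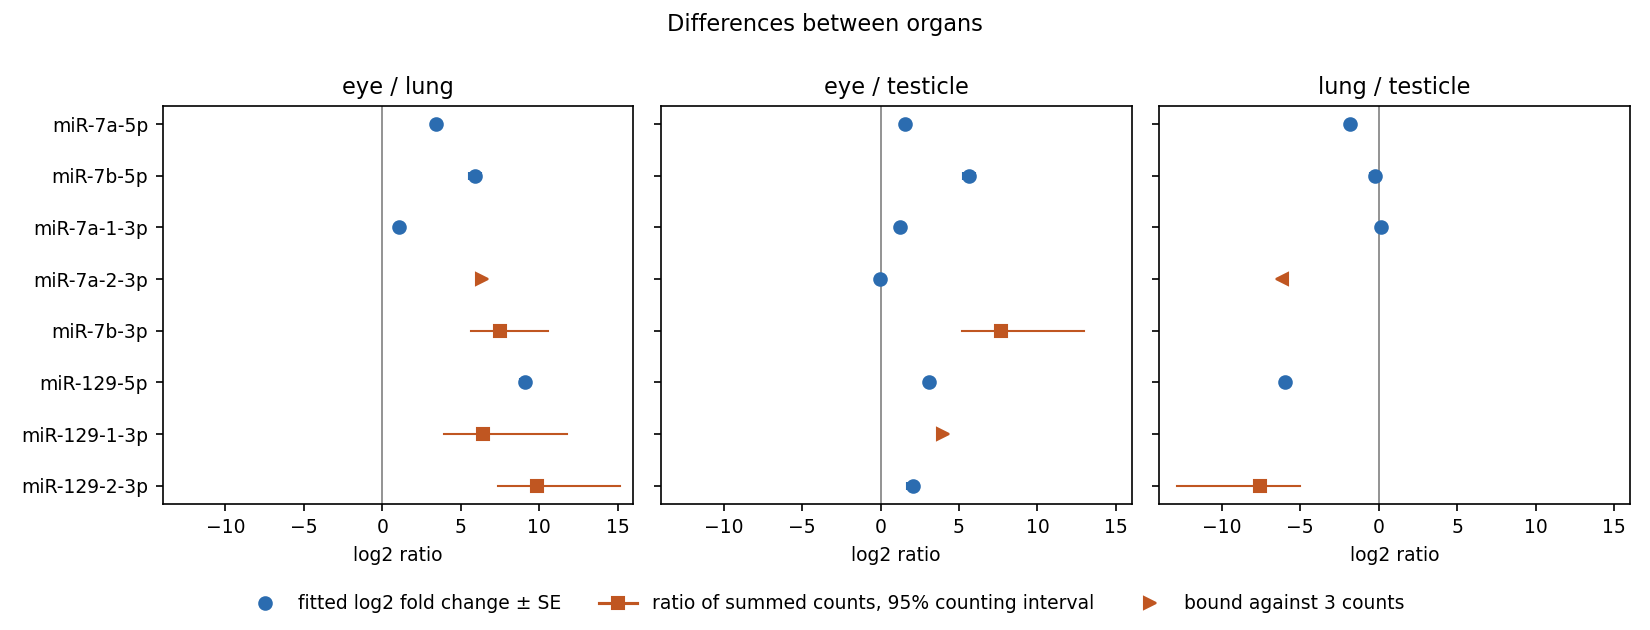
Log2 ratio of each member between organs. Blue circles are edgeR log2 fold changes with their SE, orange squares ratios of summed counts by library totals with a 95% counting interval, and orange arrowheads bounds against 3 counts over an organ. For eye over lung, miR-129-5p lies at 9.07 and miR-7a-1-3p at 1.08. miR-7b-3p and miR-129-1-3p have no value for lung over testicle.

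Calls between organs were common over all miRNAs. For eye over lung, 35.4% of 642 tested miRNAs were higher in eyes at an edgeR adjusted p under 0.05, and 40.2% were higher in eyes than in testicles. For lung over testicle 27.4% were higher and 49.1% lower in lungs. Of the members, 4 passed the filter on low counts in the libraries of both eye and lung (the 3 guides and miR-7a-1-3p), and 4 of 4 were higher in eyes. In both eye and testicle 6 passed (those and miR-7a-2-3p and miR-129-2-3p), and 5 of 6 were higher in eyes. In both lung and testicle 4 passed, of which 2 were lower in lungs (miR-7a-5p and miR-129-5p), 0 higher and 2 not called. Of those not called, miR-7a-1-3p was called higher in lungs in the other settings listed above. miR-7b-3p and miR-129-1-3p passed the filter through the eye alone, so their differences are not counted here. In the lung, miR-129-5p reached the cut of the filter in only 3 libraries.

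Ratios of members within a library do not depend on the scaling between libraries. They compare mature arms and not the output of loci, and miR-7a-5p comes from both Mir7-1 and Mir7-2. Of the summed miR-7 guides, miR-7b-5p made up 26.5% ± 1.03 in eyes, 6.76% ± 4.23 in lungs and 2.11% ± 0.428 in testicles (SD, n = 6 each). Its ratio to miR-7a-5p was 6.18-fold higher in eyes than in lungs and 16.9-fold higher in eyes than in testicles, without overlap (exact two-sided permutation test, 924 regroupings, p = 0.00216 in both cases, the smallest this design can give; 0.00354 after adjustment over 18 ratio tests). miR-7b-5p was thus lower outside the eye by more than miR-7a-5p was.

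The lung share of miR-7b-5p ran from 1.94% in left lung 1 (95% exact binomial interval 1.24 to 2.87) and 2.07% in right lung 1 (1.43 to 2.90) to 11.6% in left lung 2 (9.99 to 13.4). The testicles ran from 1.31% to 2.52%, so both low lungs lay inside the testicle range. The ratio was 2.73-fold higher in lungs than in testicles by its mean log2 (exact permutation p = 0.0433, adjusted 0.0481). The call held without left eye 3, right eye 1, left lung 1, right lung 1 or right testicle 3 and was lost without any 1 of the other 13 libraries (exact permutation, adjusted p up to 0.0657). This test uses no eye library, so leaving out an eye changes only the adjustment over the ratio tests.

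**Figure D3:**
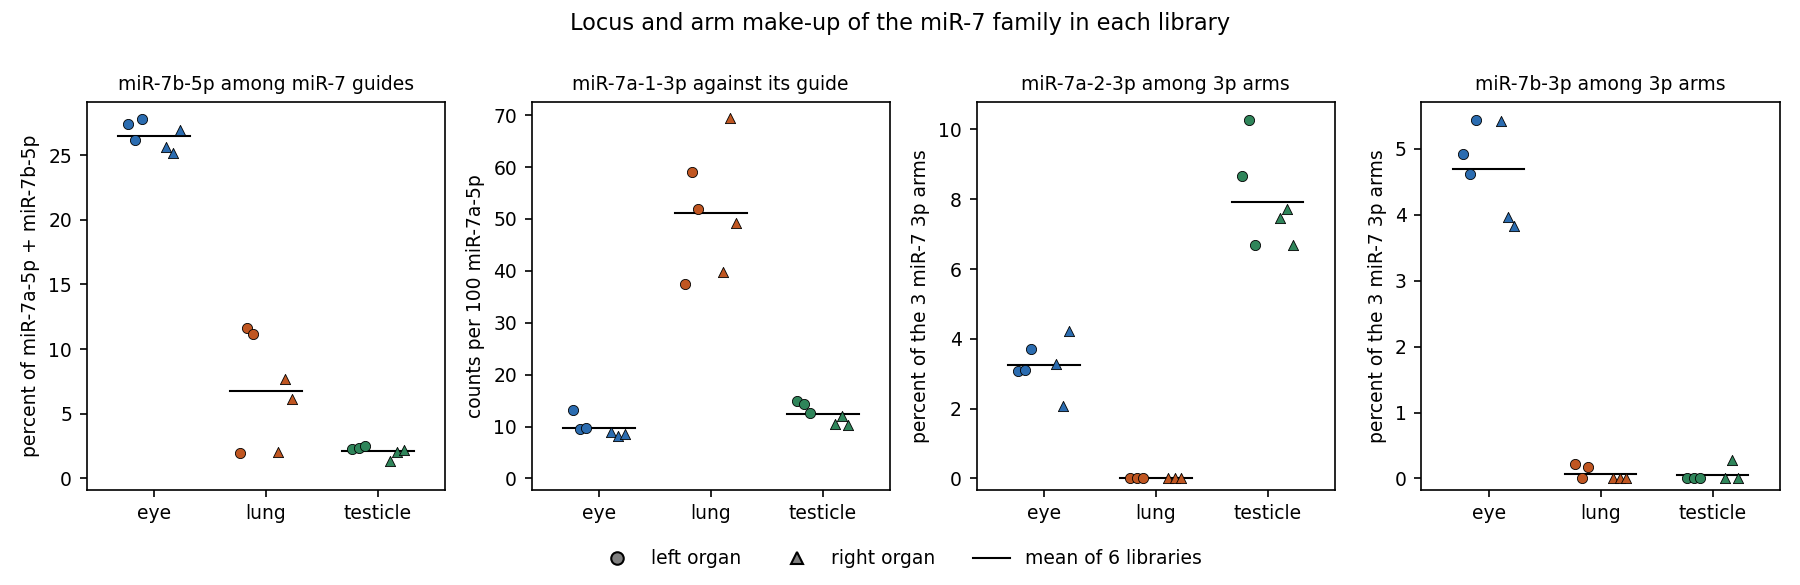
Make-up of the miR-7 family in each library. The panels give miR-7b-5p as a percentage of both guides, miR-7a-1-3p per 100 counts of miR-7a-5p, and miR-7a-2-3p and miR-7b-3p as percentages of the 3 miR-7 3p arms. Circles are left organs, triangles right organs and lines the mean of 6 libraries. miR-7b-5p is 26.5% of the guides in eyes, miR-7a-1-3p reaches 51.1 per 100 in lungs, and miR-7a-2-3p is 7.91% of the 3p arms in testicles.

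The 3p arms of miR-7 were dominated by the Hnrnpk locus everywhere. miR-7a-1-3p made up 92.1% ± 1.07 of the 3 arms in eyes, 99.9% ± 0.103 in lungs and 92.0% ± 1.36 in testicles (SD, n = 6 each). The rest was divided differently in eye and testicle. miR-7a-2-3p was 3.24% ± 0.721 in eyes and 7.91% ± 1.37 in testicles, and 0 of 3684 counts in lungs, which allows up to 0.0814%. miR-7b-3p was 4.70% ± 0.696 in eyes, 2 of 3684 counts in lungs and 1 of 1526 counts in testicles.

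The ratio of miR-7a-2-3p to miR-7a-1-3p was 2.50-fold higher in testicles than in eyes, without overlap between their libraries (log2 difference of eye minus testicle -1.32; exact permutation p = 0.00216, adjusted 0.00354). The eye thus held both minor arms, the testicle miR-7a-2-3p and a single count of miR-7b-3p, and the lung 2 counts of miR-7b-3p and no count of miR-7a-2-3p. The 3p counts do not divide miR-7a-5p between Mir7-1 and Mir7-2, because both loci make the same guide and what each contributes cannot be told apart.

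The ratio of miR-7a-1-3p to miR-7a-5p set the lung apart. Because Mir7-2 also makes miR-7a-5p, the balance of the Mir7-1 arms and the share of each locus in the guide cannot be told apart here. For every 100 counts of miR-7a-5p there were 9.69 ± 1.86 counts of miR-7a-1-3p in eyes, 51.1 ± 12.0 in lungs and 12.5 ± 1.95 in testicles (SD, n = 6 each). The lung libraries ran from 37.5 in left lung 1 to 69.4 in right lung 2, and the highest of the other organs was 15.0. The ratio was 5.23-fold higher in lungs than in eyes (log2 difference of eye minus lung -2.39) and 4.05-fold higher in lungs than in testicles (log2 difference 2.02), each with an exact permutation p of 0.00216, adjusted 0.00354. Eye and testicle overlapped, with a log2 difference of -0.37 (exact permutation p = 0.0303, adjusted 0.042). That call was lost without left eye 2, any right eye, any left testicle or right testicle 2 (exact permutation, adjusted p up to 0.0701).

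The counts of miR-7b-3p were also set beside its guide. Per 100 counts of miR-7b-5p the eye had 1.38 ± 0.347 counts of miR-7b-3p (SD, n = 6), the lungs had 2 counts for 522 of the guide, and the testicles had 1 count for 246. A limit of 3 counts would be 0.575 per 100 over the lungs and 1.22 per 100 over the testicles.

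In the miR-129 family, where the split of the 3p counts depends on how reads with a mismatch were assigned, miR-129-1-3p made up 8.37% ± 2.63 of both 3p arms in eyes (SD, n = 6), against 0 of 103 counts in testicles, which allows up to 2.91%. Only 2 counts of either arm were found in lungs. The ratio of miR-129-2-3p to miR-129-1-3p gave a log2 difference of eye minus testicle of -1.54 with 0.5 added to each count (exact permutation p = 0.00433, adjusted 0.00649). Its value depends on the added 0.5, since miR-129-1-3p was at 0 in testicles, and with 1 added the exact permutation p was 0.0952 after adjustment.

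Both miR-129 3p arms together amounted to 3.17 ± 1.38 counts per 100 of miR-129-5p in eyes and 5.88 ± 2.41 in testicles (SD, n = 6 each), and to 2 counts for 66 in lungs. The eye ran from 1.99 to 5.36 and the testicle from 1.99 to 8.67, so the organs overlapped. The log2 difference of eye minus testicle was -0.91 (exact permutation p = 0.0455, adjusted 0.0481). The call held without left eye 3, right eye 1 or right testicle 3 and was lost without any 1 of the other 15 libraries (exact permutation, adjusted p up to 0.0985). Lung libraries are not part of this test, so leaving out a lung changes only the adjustment over the ratio tests.

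Left and right organs were compared next. The guide miR-7a-5p was lower on the left in the mean of all 3 organs, a difference that did not pass the test over all miRNAs. In left eyes it stood at 3486, 4592 and 3815 CPM, against 4795, 5822 and 4831 CPM in right eyes, with every left library below every right one under TMM scaling. By library totals the eyes overlapped, at 3625, 4827 and 4509 CPM on the left and 4742, 5827 and 4626 CPM on the right. In left testicles it stood at 980, 1022 and 1492 CPM, against 2030, 1713 and 2053 CPM in right testicles, without overlap, which was also so by library totals (958 to 1277 CPM on the left and 1419 to 1597 CPM on the right). Left lungs stood at 442, 384 and 316 CPM and right lungs at 602, 338 and 408 CPM, which overlapped.

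The levels above were scaled by TMM over all 18 libraries, whereas each fit within an organ scaled the 6 libraries of that organ alone. In these fits the log2 fold change of miR-7a-5p, left over right, was -0.37 in eyes (SE 0.17, edgeR with adjusted p = 0.98), -0.36 in lungs (SE 0.39, edgeR with adjusted p = 0.91) and -0.55 in testicles (SE 0.19, edgeR with adjusted p = 0.57). Over all organs it was -0.45 (SE 0.14, edgeR with adjusted p = 0.76). Without right lung 1 the lung value was 0.02. With TMM scaling every left eye library was also below every right one for miR-7b-5p, and every left testicle library below every right one for miR-7a-1-3p. By library totals both overlapped: miR-7b-5p had 1368 to 1733 CPM in left eyes and 1635 to 1957 CPM in right eyes, and miR-7a-1-3p had 144 to 161 CPM in left testicles and 154 to 170 CPM in right testicles.

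Such separation was also counted over all tested miRNAs. With TMM scaling over all 18 libraries every left library lay below every right one for 6.57% of 487 tested miRNAs in eyes, which held 2 of the 8 members, for 3.26% of 430 in lungs, with 0 members, and for 19.4% of 464 in testicles, with 2 members. Every left library lay above every right one for 3.49% in eyes, 3.49% in lungs and 2.16% in testicles, with no member. The TMM factors were 0.86 to 1.02 in left testicles and 0.73 to 0.83 in right testicles, and their part in these shares was not tested. With edgeR no member was called between sides, where the calls over all tested miRNAs were 0 of 487 in eyes (0%), 0 of 430 in lungs (0%), 0 of 464 in testicles (0%) and 0 of 642 over all organs (0%). At an unadjusted p under 0.05 the edgeR counts were 18, 1, 36 and 37 miRNAs, and DESeq2 called 0, 0, 2 and 0, none of them a member. For a side difference that varies between organs, edgeR called 0 of 642 (0%), with 21 at an unadjusted p under 0.05, and DESeq2 called 0.

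**Figure D4:**
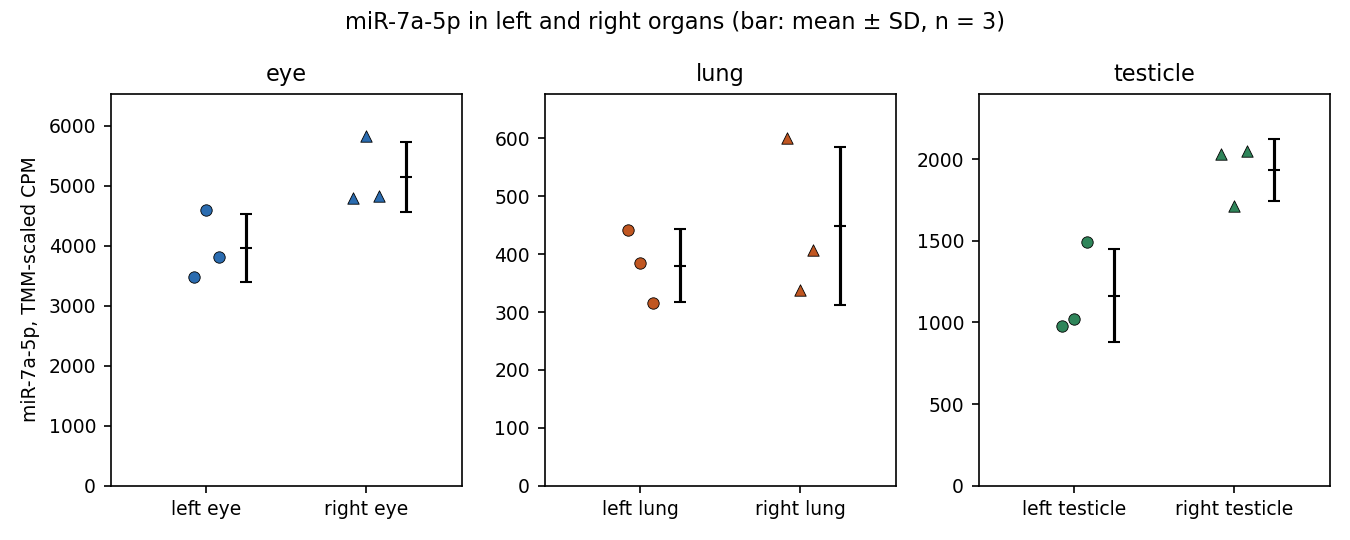
Level of miR-7a-5p in left and right organs, in CPM scaled by TMM over all 18 libraries, with 1 panel and 1 scale per organ. Points are libraries and bars the mean ± SD of 3 libraries. Left libraries lie below right ones for eyes (left 3964 ± 568, right 5149 ± 583) and testicles (left 1165 ± 284, right 1932 ± 190), and overlap with them for lungs (left 380 ± 63.0, right 449 ± 136). By library totals the eyes overlap too.

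The families were set beside other miRNAs known from neural and endocrine tissue. The first list held 18 miRNAs known from neural tissue, some of them from myelinating glia. Of these 18, 17 were higher in eyes than in lungs and 0 lower (median log2 fold change 4.91, against 0.00 over all tested miRNAs), and 16 were higher and 2 lower in eyes than in testicles (median 3.87 against 0.05). Over all tested miRNAs 35.4% were higher in eyes than in lungs and 40.2% higher in eyes than in testicles. With left testicle 1 as the scaling reference 1 was lower in eyes than in lungs, and with library totals or left lung 1 as the reference 0 were lower in eyes than in testicles. For lung over testicle 4 were higher and 9 lower (median -0.95 against -0.90), where 27.4% of all tested miRNAs were higher and 49.1% lower, and miR-7a-5p at -1.86 and miR-129-5p at -5.99 lay below that median. When library totals were used, or when the reference was left lung 1 or left testicle 1, 7 were higher and 8 lower in lungs. miR-124-3p, the most abundant of the list, had 41220.5 ± 12512 CPM in eyes, 50.5 ± 53.2 CPM in lungs and 1579 ± 300 CPM in testicles (SD, n = 6 each).

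Of 7 miRNAs known from endocrine cells and islets, 6 were tested. In the eye 4 were higher and 1 lower than in lungs (median log2 fold change 1.83, against 0.00 over all tested miRNAs, of which 35.4% were higher), and 4 were higher and 2 lower than in testicles (median 1.22 against 0.05, with 40.2% higher). With left testicle 1 as the scaling reference 3 were higher and 2 lower in eyes than in lungs, and with library totals or left lung 1 as the reference 4 were higher and 1 lower in eyes than in testicles. The most abundant of the list was miR-204-5p, with 48430 ± 4480 CPM in eyes, 401 ± 457 CPM in lungs and 15090 ± 4478 CPM in testicles, a log2 fold change of eye over testicle of 1.71 (SE 0.45, edgeR with adjusted p = 0.0025). For miR-184-3p, an eye marker as miR-204-5p is, eye over testicle gave 2.51 (SE 0.54, edgeR with adjusted p = 4.1e-04), and for miR-30d-5p 0.73 (SE 0.21, edgeR with adjusted p = 0.0043). miR-375-3p, an islet and endocrine miRNA often named with miR-7, had 3383 ± 452 CPM in eyes, 3537 ± 880 CPM in lungs and 15661 ± 2875 CPM in testicles (SD, n = 6 each). It was lower in eyes than in testicles (a log2 difference of -2.20 with SE 0.18; edgeR adjusted p = 7.4e-09), the opposite direction to miR-7a-5p and to those 3 miRNAs.

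miR-671-5p, which directs cleavage of the miR-7-binding circular RNA Cdr1as, had 57.3 ± 29.1 CPM in eyes, 39.8 ± 15.2 CPM in lungs and 31.4 ± 4.60 CPM in testicles (SD, n = 6 each). Eye over testicle gave 0.87 (SE 0.35, edgeR with adjusted p = 0.031), which was 0.66 with left testicle 1 as the scaling reference (edgeR adjusted p = 0.076). The differences of miR-671-5p between eye and lung and between lung and testicle did not pass (edgeR adjusted p = 0.19 and 0.39). With left lung 1 as the scaling reference, lung over testicle gave 0.90 (edgeR adjusted p = 0.022).

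The miRNAs whose profile over the 18 libraries was most like that of a member were found by the root mean square (RMS) difference of log2(CPM + 1), each miRNA centred on its own mean, among 448 miRNAs with at least 10 CPM on average. For miR-7a-5p these were miR-1983 (RMS difference 0.36 log2 units), miR-376b-3p (0.54) and miR-434-5p (0.58), against a median of 1.85. For miR-7b-5p they were miR-487b-3p (0.54), miR-137-3p (0.57) and miR-495-3p (0.62), against a median of 3.02. For miR-129-5p they were miR-9-5p (0.58), miR-135a-5p (0.67) and miR-499-5p (0.86), against a median of 3.79.

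The 3p arms had other neighbours. The profile of miR-7a-1-3p was closest to let-7e-3p (0.41), miR-744-3p (0.41) and miR-361-5p (0.42), against a median of 1.44. That of miR-129-2-3p was closest to miR-184-5p (0.60), miR-7689-3p (0.61) and miR-370-3p (0.82), against a median of 2.62. The members themselves were not eligible as neighbours.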

How the data were processed

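Per the labels' protocols, spin columns were used to extract total RNA, and the BGI-500 procedure to make libraries. The deposited values are raw counts per mature miRNA, 1 table per library, and the submitters' processing notes name build GRCm38.p6. The sources used here do not give the aligner, counting program, strand setting, multi-mapping rule or molecular identifiers, so intervals cover counting error only. Counts of near-identical or antisense miRNAs may be split.

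All miRNAs were fitted with edgeR 4.0.16 (R 4.3.3): TMM scaling, filterByExpr with the groups, quasi-likelihood tests, and p-values adjusted after Benjamini and Hochberg over all tested miRNAs, with a threshold of 0.05. Organs were compared in 1 fit of 6 groups, as means of both sides, and sides within an organ, over all organs and as an interaction. SEs are the log2 fold change divided by the root of F. Ratios of members were tested on log2 counts with 0.5 added, by exact permutation of 6 against 6 libraries. Folds against 0 counts are bounds at 3 counts over an organ. DESeq2 1.42.0, other scalings, no filter, a replicate block and left-out libraries were alternatives. The procedures were tested on simulated data. No libraries of a group agreed within sampling noise (chi-square per degree of freedom at least 61.7). Named miRNAs are the 8 members, the 3 nearest profiles and the most abundant members of 3 lists. The members, lists and left-out lungs were chosen with earlier results of these data known.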

Additional observations from a re-analysis of the deposited data

Results flagged for a closer look

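Of 34 sets of 6 libraries examined for 1 library far from the rest, a number in which chance alone flags about 1 in 20, a single value stood apart. In left eye 1 there were 13.3 counts of miR-7a-1-3p per 100 of miR-7a-5p, against 8.15 to 9.79 in the other 5 eye libraries. That library had 9717 counts of miR-7a-5p, the lowest of the eye, and 1290 of miR-7a-1-3p, the highest of the eye.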

How the results depend on the processing

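The number of members called between organs was 8 for eye and lung, 7 for eye and testicle and 4 for lung and testicle. These counts include members that passed the filter on low counts only through organs where they were high, so they only compare settings; of all tested miRNAs 35.4% were higher in eyes than in lungs, 40.2% higher in eyes than in testicles, and 27.4% higher and 49.1% lower in lungs than in testicles. It stayed at 7 to 8, at 7 and at 4 to 5 over the other scalings, DESeq2, no filter and left-out libraries, and no member was called between sides in any of them. The eye and lung call lost was that of miR-7a-1-3p without right eye 2. Of the 18 ratio tests 17 passed, with 12 to 17 when 1 library was left out. Some of these ratios rest on almost no counts, so these numbers too only compare settings. Both miR-129 3p arms together had 2 counts over the lungs, and miR-7b-3p had 2 over the lungs and 1 over the testicles. The outcome of such ratios depends on the added 0.5 and on depth. Where both arms needed at least 10 counts, 8 tests could be made and 8 passed. The values that changed sign had not passed the test with the main settings. miR-7a-2-3p, eye over testicle (-0.06), was 0.19 with library totals, 0.45 with left lung 1 as reference and between -0.37 and 0.0021 when 1 library was left out. miR-7b-5p, lung over testicle (-0.23), was 0.19 with library totals, 0.31 when left lung 1 was the reference, 0.25 when left testicle 1 was, 0.15 without right lung 1 and left lung 2, and between -0.45 and 0.36 when 1 library was left out. miR-7a-5p, left over right lung (-0.36), lay between -0.62 and 0.020 when 1 library was left out. The log2 ratio of miR-129 3p arms to miR-129-5p, lung minus testicle (0.26), then lay between -0.012 and 0.49. With 1 added to each count in place of 0.5 that ratio was 0.95 and passed (exact permutation, adjusted p = 0.0458), on 2 counts of the 3p arms over the lungs. The cause was not tested. The split over all miRNAs moved with the scaling reference: for eye over lung, 227 higher and 157 lower became 196 and 262 with left testicle 1, and for lung over testicle, 176 higher and 315 lower became 233 and 267 with left lung 1. Whether replicate numbers pair libraries was not settled. Of 9 same-numbered left and right pairs of an organ, 4 had a correlation of deviations over 0.1 (range -0.42 to 0.40). Of 18 differently numbered left and right pairs of an organ, 3 did (range -0.29 to 0.33). Within an organ, 9 of 18 libraries correlated best with the library of their own number from the other side. With the replicate block the member calls stayed at 8, 7 and 4, and 13 of 18 ratio tests passed. Depth limits the 3p arms most: miR-129-1-3p had 83 counts in all eyes.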
